A study of Mus musculus with 39 samples.

Results

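RNA from the brains of mice examined 3 days after the lowest of 3 soman doses is described here gene by gene. The group holds the 3 libraries that the labels give to 1/10 of the LD50 at day 3, of 39 libraries in all, and each is set against the 3 saline libraries. Soman was injected under the skin, and the LD50 is the dose that kills 50% of animals. The same study also holds 1/5 and 1/2 of the LD50, each of the 3 doses sampled at days 1, 3, 7 and 14, with 3 libraries a group. The design text calls the 3 libraries of a group biological replicates. The labels do not give strain, sex or age, do not say how often soman was given or how saline was given, and assign the saline brains to no day. A difference from saline therefore cannot be told apart from one between collection days. Values are FPKM, fragment numbers scaled to transcript length and to library size, so that levels of different genes can be set side by side per length.

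Soman is an organophosphate nerve agent that inactivates acetylcholinesterase, the enzyme that clears acetylcholine from synapses. The acute outcome of a convulsive dose is excess cholinergic drive, with seizures and strong firing of neurons. Firing neurons switch on immediate early genes within minutes through calcium and MAP kinase signalling, which activates the factors CREB and SRF at their promoters. The products include transcription factors such as FOS and EGR1, effectors at synapses such as ARC, and phosphatases that switch the MAP kinase signal off again. A different programme, the unfolded protein response, is set by the load of proteins to be folded in the endoplasmic reticulum and raises chaperones such as HSPA5 through the factors ATF6 and XBP1.

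All 6 libraries carried the markers of brain. The neuronal gene Snap25 lay between 640 and 719 FPKM, the myelin gene Mbp between 1313 and 1959, the astrocyte gene Aqp4 between 33.2 and 43.9 and the microglial gene Cx3cr1 between 5.77 and 8.38. Genes of liver and muscle (Alb, Apoa1, Ckm and Myh4) were at 0.25 FPKM or less. Totals over all genes were 309915 to 327096 FPKM in the soman libraries and 296322 to 316802 FPKM in saline, and mitochondrial transcripts took 8.68% to 13.3% of them in the soman libraries and 7.17% to 11.9% in saline. Read depth is unknown.

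Some of the 6 libraries stood apart. Replicate 2 of the soman group almost lacked transcripts of the cerebellum. Gabra6, a GABA receptor subunit of cerebellar granule cells, stood at 75.6, 0.350 and 31.8 FPKM in soman replicates 1, 2 and 3, against 69.1, 53.8 and 60.8 FPKM in saline replicates 1, 2 and 3. Pcp2, a gene of Purkinje cells, stood at 92.0, 0.852 and 76.1 FPKM in the soman libraries, against 89.9, 83.9 and 78.2 FPKM in saline. Both genes were close to 0 in soman replicate 2 and near the saline level in soman replicate 1. The 18 cerebellar markers listed summed to 739, 156 and 497 FPKM in the 3 soman libraries and to between 620 and 728 FPKM in saline. Over the series, 3 of the 39 libraries had such low cerebellar values, and the other 2 belong to 1/5 LD50 at day 3 and 1/2 LD50 at day 7. In these bulk samples, fewer cells of a type and less RNA per cell cannot be told apart. Counts of the gene lists against saline below are followed by the count without soman replicate 2 where it differs.

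Saline replicate 3 lay near the middle between saline replicates 1 and 2. Of 55 genes that averaged at least 5 FPKM and differed over 2-fold between those 2 libraries, 65.5% had a value in replicate 3 in the middle of the interval, from 0.3 to 0.7 of its width. With a library of another group in its place the share was at most 36.4%. In the series 7 libraries exceeded that limit in this way, none of them from 1/10 LD50 at day 3, where replicate 3 had 58.7% against a limit of 61.5%. Whether saline replicate 3 is independent of the other 2 saline libraries was not tested, so that the p-values against saline may rest on fewer than 3 independent saline samples. Growth hormone transcript (Gh), a sign of pituitary tissue, stood at 0.0652, 0.0848 and 0 FPKM in the soman libraries, against 6.18, 0 and 2.15 FPKM in the saline libraries.

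Of 14701 genes tested with limma, 237 were higher (1.61%) and 788 lower (5.36%) in soman brains at day 3 than in saline brains at an adjusted p under 0.05 (6.97% in all). Counts of risen and fallen genes in each list below are to be read beside these shares. Most changes were small. The median log2 change was 0.37 among genes that rose and -0.34 among genes that fell, and 191 of the 237 and 705 of the 788 were under 1.5-fold. More than 2-fold changes were seen in 14 genes that rose and 13 that fell. All 3 soman libraries lay above all 3 saline libraries at 13% of the tested genes and below them at 15.8%. Single libraries moved these counts. Without soman replicate 2, 96 genes rose and 253 fell, and without soman replicate 3, 153 rose and 671 fell. Leaving out saline replicate 1 gave 158 and 459, saline replicate 2 gave 119 and 535, and saline replicate 3 gave 89 and 378. A fit of the 6 libraries alone called 73 and 141, and a fit without the 7 libraries that lie between others of their group called 22 and 122.

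**Figure D1:**
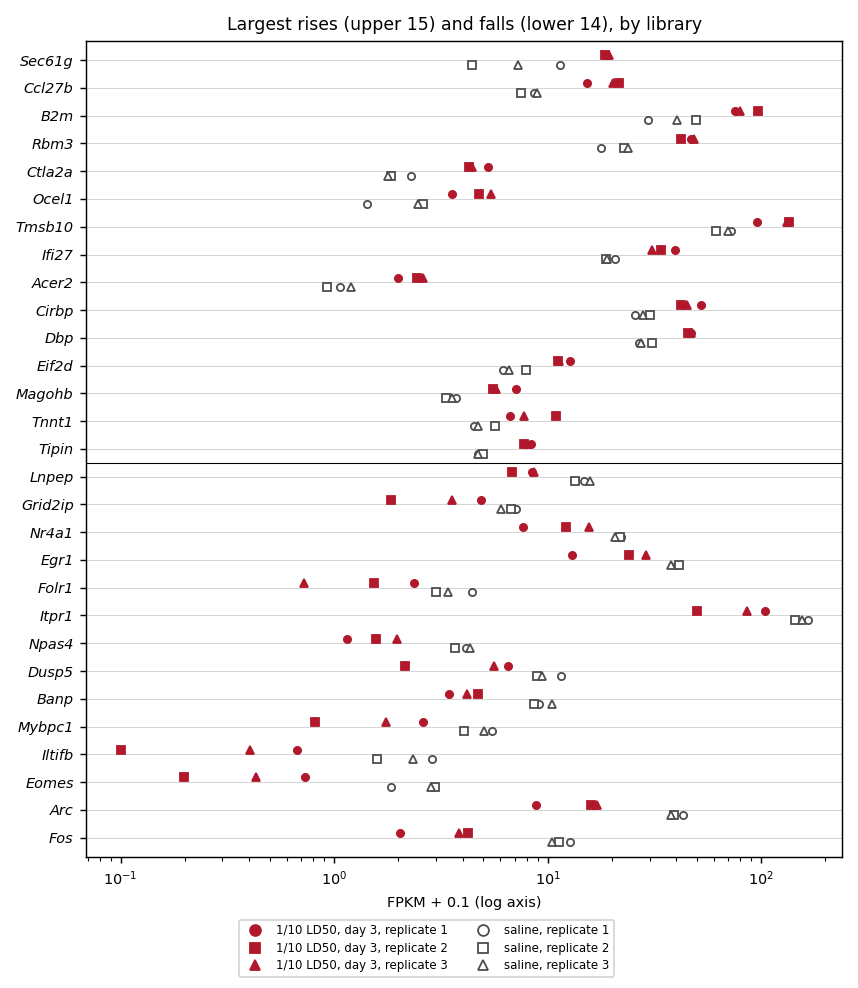
FPKM plus 0.1 (log axis) of the 15 largest rises and 14 of the 15 largest falls among named genes, ranked by change in log2(FPKM + 1). Filled marks are the 3 libraries of 1/10 LD50 at day 3 and open marks the 3 saline libraries. Rises are at the top and falls at the bottom; for Fos all 3 soman libraries lie at or under 4.12 FPKM and all 3 saline libraries at or over 10.4 FPKM.

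Genes past the threshold that averaged at least 2 FPKM in either group, predicted loci left out, were ranked by change in log2(FPKM + 1). On this scale the largest fall was that of Fos, an immediate early gene. As a share of the saline mean, Eomes (0.351 against 2.45 FPKM) and Iltifb (0.291 against 2.16 FPKM) fell further than Fos (3.26 against 11.4 FPKM). Fos stood at 1.94, 4.12 and 3.73 FPKM in soman brains, against 12.7, 11.2 and 10.4 FPKM in saline brains, a log2 change of -1.58 ± 0.23 (SE, limma adjusted p = 0.000187). Arc, which encodes a protein that removes AMPA receptors from synapses, stood at 8.75, 15.9 and 16.999 FPKM in soman brains and at 43.1, 38.97 and 37.6 FPKM in saline brains (-1.51 ± 0.22, adjusted p = 0.000187). For both genes no soman library reached the lowest saline library, and soman replicate 1 was the lowest of all 6. Both passed under every alternative tried, among them the fit without soman replicate 2.

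Of 19 tested transcription factors of the immediate early list, 9 fell and none rose, with a median log2 change of -0.42 (all tested genes 0.0012). The 9 were Fos, Nr4a3, Npas4, Egr1, Nr4a1, Klf4, Fosl2, Ier5 and Junb. Nr4a3, a nuclear receptor without a known ligand, stood at 2.35, 2.88 and 2.67 FPKM in soman brains, against 5.14, 5.14 and 4.60 FPKM in saline. Npas4, a factor that answers calcium entry and organises inhibitory synapses, stood at 1.04, 1.47 and 1.87 FPKM, against 4.05, 3.57 and 4.23 FPKM in saline. These 2 genes also separated the groups fully, with adjusted p of 0.000157 and 0.00229, and passed under every alternative. Egr1, a zinc finger factor, stood at 12.9, 24.0 and 28.8 FPKM in soman brains and at 40.1, 41.0 and 37.9 FPKM in saline (adjusted p = 0.0162). Nr4a1, a nuclear receptor related to Nr4a3, stood at 7.58, 12.1 and 15.6 FPKM in soman brains, against 22.0, 21.8 and 20.6 FPKM (adjusted p = 0.0192). In both, soman replicate 1 was lowest and replicate 3 nearest to saline, and neither passed without replicate 1 (adjusted p = 0.120 for Egr1 and 0.119 for Nr4a1). Nr4a1 was also lost without soman replicate 2 (0.0552), and in the fit of the 6 libraries alone neither passed (0.103 and 0.0802). Without that replicate 5 of the 19 factors fell, and without the libraries that lie between others 3 did.

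Among 22 tested effectors induced by activity, 4 fell, beside 5.36% of all tested genes, and none rose. The median log2 change was -0.06. Besides Arc these were Trib1, a pseudokinase, Homer1, a scaffold of metabotropic glutamate receptors, and Per1, a clock gene. Trib1 stood at 1.42, 1.55 and 2.11 FPKM in soman brains, against 3.29, 3.34 and 3.08 FPKM in saline (adjusted p = 0.00127). Homer1 stood at 13.6, 15.5 and 16.04 FPKM, against 23.2, 23.3 and 24.4 FPKM in saline (adjusted p = 0.0155). Homer1 and Per1 did not pass without soman replicate 2 (0.0513 and 0.101) or with a trend on transcript length removed (0.0851 and 0.134), so that 2 of the 22 fell in either case. The other 18 effectors of the list did not pass.

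A letter motif was common in the promoters of immediate early genes, whether they passed or not. A CRE core, the letters TGACG on either strand, to which CREB binds, was found in 8 of the 10 fallen immediate early and effector genes that have a window, in 20 of the 30 tested members with one, and in 23% of the 27025 genes with a window. Fosl2 and Ier5 lack it, and Egr1, Arc and Trib1 have no window here. The core was also found in 11 of 18 tested heat shock genes, in 10 of 21 tested chaperones of the endoplasmic reticulum and in 1 of 2 windows of Cirbp, which rose. The window runs from 250 bases before to 50 after the start. No full CRE, in which TGACG runs on as TCA, was found in the 10, against 3 of the 30 tested members and 2.03% of all genes. No CArG box, to which SRF binds, was found in the 10 either, against 1 of the 30 and 1.81% of all genes. Shares this low mostly leave 10 genes without a match. A match is only a description of letters. The windows of the 4 genes that fell furthest in log2(FPKM + 1) among those with a window are shown. They run 5′ to 3′ on the gene's strand in RefSeq's GRCm38.p6, with each CRE core in capitals (as CGTCA where it lies on the other strand).
Fos (chr12:85473640-85473939, plus strand): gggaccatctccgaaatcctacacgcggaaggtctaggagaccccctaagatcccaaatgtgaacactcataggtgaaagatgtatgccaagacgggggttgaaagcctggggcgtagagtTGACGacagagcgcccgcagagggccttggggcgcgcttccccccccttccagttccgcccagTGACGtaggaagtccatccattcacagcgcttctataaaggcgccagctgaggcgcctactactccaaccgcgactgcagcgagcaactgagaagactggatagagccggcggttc
Npas4 (chr19:4989922-4990221, minus strand): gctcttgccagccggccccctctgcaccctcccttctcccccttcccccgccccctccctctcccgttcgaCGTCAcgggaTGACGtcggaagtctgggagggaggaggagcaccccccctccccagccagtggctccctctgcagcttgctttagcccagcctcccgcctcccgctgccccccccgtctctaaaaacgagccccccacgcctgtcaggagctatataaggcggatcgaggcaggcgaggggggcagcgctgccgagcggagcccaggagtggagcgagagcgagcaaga
Nr4a1 (chr15:101266596-101266895, plus strand): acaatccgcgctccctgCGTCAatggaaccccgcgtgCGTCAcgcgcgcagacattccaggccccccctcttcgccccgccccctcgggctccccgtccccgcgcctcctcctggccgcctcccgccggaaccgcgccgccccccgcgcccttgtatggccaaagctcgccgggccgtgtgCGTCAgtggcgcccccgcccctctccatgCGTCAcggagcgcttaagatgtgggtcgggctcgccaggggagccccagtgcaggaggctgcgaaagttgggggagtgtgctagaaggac
Nr4a3 (chr4:48045055-48045354, plus strand): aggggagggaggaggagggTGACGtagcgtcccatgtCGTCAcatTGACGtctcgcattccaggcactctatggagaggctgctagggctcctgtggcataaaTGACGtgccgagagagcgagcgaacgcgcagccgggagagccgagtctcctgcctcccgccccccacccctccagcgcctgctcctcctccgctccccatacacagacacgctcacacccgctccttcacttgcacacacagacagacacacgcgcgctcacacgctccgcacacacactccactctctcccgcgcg

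**Figure D2:**
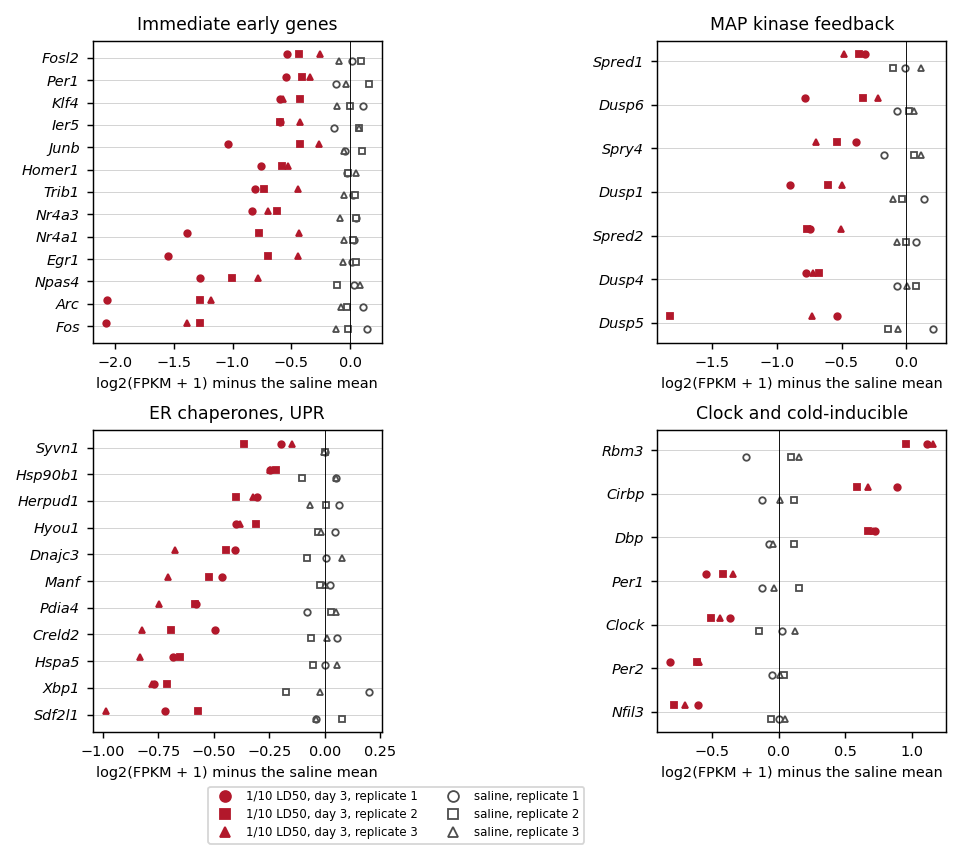
Log2(FPKM + 1) minus the saline mean (x axis) for each member past the threshold in 4 groups of genes, in each library of 1/10 LD50 at day 3 (filled) and saline (open). In the 3 panels of immediate early genes, MAP kinase feedback and endoplasmic reticulum (ER) chaperones, which includes the unfolded protein response (UPR), soman libraries lie to the left of saline, and in the panel of clock and cold-inducible genes Rbm3, Cirbp and Dbp lie to the right and the other 4 to the left.

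Some genes that end the MAP kinase signal fell. Of 15 tested MAP kinase phosphatases and Sprouty family members, 7 fell and none rose, with a median log2 change of -0.28. Dusp4, a phosphatase of nuclear ERK, stood at 1.92, 2.14 and 2.03 FPKM in soman brains, against 3.74, 4.25 and 3.999 FPKM in saline (log2 change -0.72 ± 0.11, limma adjusted p = 0.000187). Spred2, which holds back activation of RAF by RAS, stood at 7.90, 7.76 and 9.51 FPKM, against 14.7, 13.8 and 13.2 FPKM in saline (adjusted p = 0.00114). The soman libraries of both genes are close to each other and well below saline, and both passed under every alternative. Dusp1, Dusp6, Spry4 and Spred1 fell as well, by 0.39 to 0.67 on the log2 scale. Dusp5 fell most, by 1.03, but its soman values of 6.44, 2.05 and 5.51 FPKM, against 11.5, 8.78 and 9.31 FPKM in saline, rest on replicate 2, without which the adjusted p was 0.268. Without that replicate 5 of the 15 fell, with the length trend removed 4, and without the libraries that lie between others 2.

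Chaperones of the endoplasmic reticulum gave falls and no rise. Of 24 tested members of this list 11 fell and none rose, and the median log2 change was -0.24. All 3 soman libraries lay below saline for 17 of the 24, beside 15.8% of all tested genes. Their summed level ranged from 1048 to 1092 FPKM in soman brains and from 1259 to 1321 FPKM in saline. Hspa5 (BiP), the main chaperone of the compartment and the sensor of its load, stood at 108, 111 and 97.6 FPKM in soman brains, against 175, 168 and 181 FPKM in saline (log2 change -0.72 ± 0.13, limma adjusted p = 0.000733). Xbp1, the transcription factor of the response, stood at 18.8, 19.6 and 18.7 FPKM, against 37.7, 28.9 and 32.3 FPKM in saline (-0.75 ± 0.11, adjusted p = 0.000187). In Xbp1 the 3 soman libraries lie within 1 FPKM of each other, with a wider spread in saline.

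Pdia4, which forms disulphide bonds, stood at 16.8, 16.8 and 14.9 FPKM in soman brains and at 24.2, 26.2 and 26.6 FPKM in saline. Manf, a secreted factor of the stressed endoplasmic reticulum, stood at 48.4, 46.4 and 40.7 FPKM, against 68.2, 66.0 and 66.98 FPKM in saline. Creld2, a disulphide isomerase partner, stood at 10.8, 9.30 and 8.41 FPKM, against 16.3, 14.9 and 15.7 FPKM in saline. All 3 genes separated the groups (adjusted p = 0.000379, 0.00125 and 0.00154). Sdf2l1, Dnajc3, Hyou1, Herpud1, Syvn1 and Hsp90b1, which serve folding or the removal of misfolded proteins, fell by 0.24 to 0.76 on the log2 scale. Calr and Pdia3, of the glycoprotein folding cycle, did not pass (adjusted p = 0.153 and 0.25). Without soman replicate 2, 8 of the 24 fell, with a trend on transcript length removed from each library 9 did, and without the libraries that lie between others 6 did.

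The ER stress response element (ERSE), which reads CCAAT, any 9 bases and CCACG on either strand, binds ATF6 together with NF-Y. It was found in 5 of the 9 fallen members that have a promoter window, in 8 of the 21 tested members with one, and in 37 of 27025 genes (0.137%). Hspa5, Creld2, Dnajc3 and Syvn1 hold 1 copy and Hsp90b1 holds 2. These 5 windows, in GRCm38.p6 from RefSeq and on the gene's strand, are shown because they hold the element, which is in capitals (as CGTGG ahead of ATTGG where it lies on the other strand).
Hspa5 (chr2:34771840-34772139, plus strand): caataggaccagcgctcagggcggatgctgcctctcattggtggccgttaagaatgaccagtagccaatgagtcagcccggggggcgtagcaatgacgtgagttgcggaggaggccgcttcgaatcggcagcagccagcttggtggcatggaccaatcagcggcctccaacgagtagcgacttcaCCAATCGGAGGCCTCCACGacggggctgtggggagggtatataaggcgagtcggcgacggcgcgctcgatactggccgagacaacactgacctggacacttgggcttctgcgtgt
Creld2 (chr15:88819396-88819695, plus strand): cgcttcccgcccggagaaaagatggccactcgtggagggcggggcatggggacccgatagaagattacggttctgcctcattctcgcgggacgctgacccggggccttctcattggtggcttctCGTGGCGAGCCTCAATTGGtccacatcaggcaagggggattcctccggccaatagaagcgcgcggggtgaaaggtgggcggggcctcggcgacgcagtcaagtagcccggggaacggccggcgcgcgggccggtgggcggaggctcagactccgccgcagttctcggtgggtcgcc
Dnajc3 (chr14:118937682-118937981, plus strand): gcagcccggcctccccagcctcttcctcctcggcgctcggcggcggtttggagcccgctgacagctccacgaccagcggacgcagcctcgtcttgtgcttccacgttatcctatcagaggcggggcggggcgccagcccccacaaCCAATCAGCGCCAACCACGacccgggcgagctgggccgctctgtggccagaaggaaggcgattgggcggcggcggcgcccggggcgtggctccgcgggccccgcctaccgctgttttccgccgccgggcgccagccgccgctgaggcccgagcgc
Syvn1 (chr19:6046326-6046625, plus strand): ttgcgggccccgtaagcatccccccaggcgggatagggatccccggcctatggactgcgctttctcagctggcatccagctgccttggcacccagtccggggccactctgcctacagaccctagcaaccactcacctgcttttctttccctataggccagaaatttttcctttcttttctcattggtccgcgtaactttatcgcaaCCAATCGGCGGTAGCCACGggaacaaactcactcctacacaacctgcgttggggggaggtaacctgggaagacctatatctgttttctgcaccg
Hsp90b1 (chr10:86705395-86705694, minus strand): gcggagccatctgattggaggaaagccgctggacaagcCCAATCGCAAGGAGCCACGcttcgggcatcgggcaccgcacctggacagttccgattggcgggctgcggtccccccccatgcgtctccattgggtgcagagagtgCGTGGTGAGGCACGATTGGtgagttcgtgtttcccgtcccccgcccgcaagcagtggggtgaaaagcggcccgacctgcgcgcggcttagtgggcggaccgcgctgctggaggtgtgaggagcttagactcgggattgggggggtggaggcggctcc

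Heat shock proteins of the cytosol gave fewer calls. Of 22 tested members 6 fell, beside 5.36% of all tested genes, and none rose. The median log2 change was -0.18, and 4 fell without soman replicate 2 and 1 without the libraries that lie between others. Dnajb5, a co-chaperone, stood at 16.6, 15.7 and 19.9 FPKM in soman brains, against 23.3, 26.9 and 23.8 FPKM in saline (limma adjusted p = 0.00252). Dnajb1, the main inducible partner of HSP70, stood at 9.56, 9.56 and 10.3 FPKM, against 14.6, 13.8 and 13.3 FPKM in saline (adjusted p = 0.00501). The others were Chordc1, Hsph1, Hspa4 and Dnajb4. The groups did not overlap for Dnajb1 and Dnajb5, but Dnajb1 lost its call without the libraries that lie between others (adjusted p = 0.0606). A heat shock element, GAA, any 2 bases and TTC, stood in the window of 2 of the 6 fallen genes, of 11 of 18 tested members and of 9.04% of all genes.

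Both cold-inducible RNA-binding proteins rose. Rbm3, whose protein rises on cooling and binds messengers at synapses, stood at 46.9, 41.9 and 48.4 FPKM in soman brains, against 17.7, 22.6 and 23.6 FPKM in saline (log2 change 1.08 ± 0.14, limma adjusted p = 0.000113). Cirbp stood at 52.2, 42.2 and 44.9 FPKM in soman brains and at 25.4, 30.2 and 28.0 FPKM in saline (0.71 ± 0.14, adjusted p = 0.00163). The 2 genes separated the groups without overlap and passed under every alternative. Rbm3-ps, listed as a pseudogene of Rbm3, had means of 2.69 FPKM in soman brains and 0.940 FPKM in saline (adjusted p = 0.000379), and reads of the 2 loci may not have been told apart. Body temperature is not given in the labels.

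Of 18 tested clock genes 1 rose and 4 fell, beside 1.61% and 5.36% of all tested genes. The median log2 change was -0.05. Without soman replicate 2, 3 fell, and with the length trend removed 2 did. Dbp, an output gene that follows the daily cycle closely, stood at 47.0, 45.3 and 46.7 FPKM in soman brains, against 26.7, 30.6 and 27.3 FPKM in saline (0.70 ± 0.13, limma adjusted p = 0.00142). Nfil3, a repressor that opposes Dbp at the same DNA sites, stood at 2.19, 1.82 and 1.98 FPKM, against 3.85, 3.67 and 4.02 FPKM in saline (adjusted p = 0.00167). Per2, of the negative limb of the clock, stood at 4.28, 5.06 and 5.12 FPKM, against 7.94, 8.53 and 8.31 FPKM in saline (adjusted p = 0.00127). In these 3 genes the groups were far apart for the spread within them, and each passed under every alternative. Clock and Per1 fell too, by 0.44 and 0.43 on the log2 scale, but neither passed with the length trend removed (limma adjusted p = 0.054 and 0.134). The labels do not give the hour at which brains were taken, and its part in these differences was not tested.

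Some markers of the brain's coverings fell. Of 18 tested markers of meningeal fibroblasts 8 fell and none rose, with a median log2 change of -0.41. They summed to between 79.9 and 84.5 FPKM in soman brains and between 110 and 126 FPKM in saline. The collagen gene Col3a1 stood at 3.90, 3.03 and 3.04 FPKM in soman brains, against 6.52, 5.44 and 5.75 FPKM in saline (-0.68 ± 0.13, limma adjusted p = 0.00202). Slc13a4, a sulphate transporter of the meninges, stood at 3.46, 3.82 and 3.32 FPKM, against 5.96, 5.90 and 5.37 FPKM in saline (adjusted p = 0.00297). The growth factor Bmp6 stood at 2.42, 2.27 and 2.31 FPKM, against 3.41, 4.10 and 3.31 FPKM in saline (adjusted p = 0.00156). Col1a1, Col1a2, Igf2, Slc47a1 and Islr also fell. No listed marker was at 0 in all 6 libraries, and 6 of the 18 fell without soman replicate 2, 5 with the length trend removed and 3 without the libraries that lie between others. Whether meninges were kept or removed to the same degree at dissection is not given.

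Of 17 tested choroid plexus markers 4 fell and none rose (median log2 change -0.47), but only 1 fell without soman replicate 2 and none without the libraries that lie between others. Enpp2, which makes lysophosphatidic acid and is abundant in this epithelium, stood at 137, 117 and 104 FPKM in soman brains, against 230, 168 and 194 FPKM in saline (adjusted p = 0.0448). Folr1, a folate receptor, stood at 2.27, 1.43 and 0.621 FPKM, against 4.33, 2.90 and 3.30 FPKM (adjusted p = 0.0296). Slc4a5 and Col8a1 were the others. Mrc1, a receptor of macrophages at the brain's borders, also fell, with 0.832, 1.07 and 0.894 FPKM in soman brains and 1.73, 1.73 and 1.58 FPKM in saline (adjusted p = 0.00278).

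**Figure D3:**
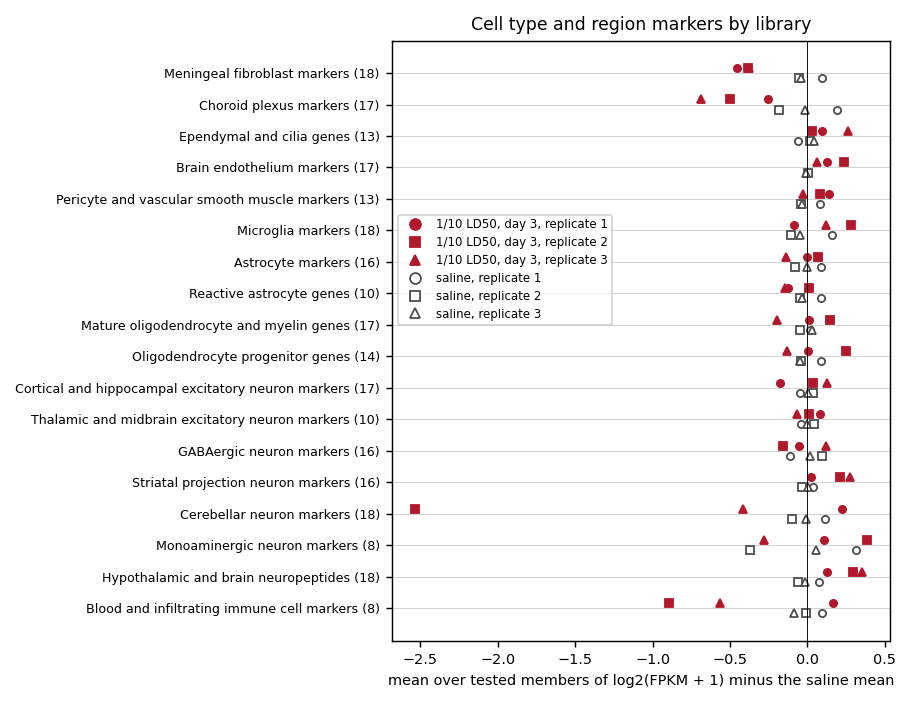
Mean over the tested markers of each cell type or brain region of log2(FPKM + 1) minus the saline mean (x axis), in each library of 1/10 LD50 at day 3 (filled) and saline (open), with the number of markers in brackets. Meningeal markers lie to the left in all 3 soman libraries, and cerebellar markers stand at -2.53 in soman replicate 2, against 0.22 and -0.42 in replicates 1 and 3.

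No marker of brain endothelium (17 tested), pericytes (13), astrocytes (16), reactive astrocytes (10), myelin (17) or oligodendrocyte progenitors (14) passed in either direction. Endothelial markers had a median log2 change of 0.15, and 7 of the 17 had all 3 soman libraries above saline, beside 13% of all tested genes. They summed to between 505 and 533 FPKM in soman brains and between 450 and 469 FPKM in saline. Among 18 microglial markers 1 rose, beside 1.61% of all tested genes. It was Ctss, a lysosomal protease, with 44.2, 47.2 and 37.6 FPKM in soman brains and 34.5, 24.5 and 29.5 FPKM in saline (limma adjusted p = 0.0308), a call that was lost without soman replicate 2 (0.145). The astrocyte markers summed to between 1389 and 1613 FPKM in soman brains and between 1474 and 1641 FPKM in saline, and overlapped. Of the 18 cerebellar markers 2 fell, beside 5.36% of all tested genes, and none passed without soman replicate 2. Itpr1, the calcium release channel of Purkinje cells, stood at 105, 50.05 and 85.5 FPKM in soman brains, against 166, 144 and 155 FPKM in saline (adjusted p = 0.0035, and 0.0571 without replicate 2). Its soman values were below saline also in replicates 1 and 3, in contrast to Gabra6 and Pcp2 in replicate 1.

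Transcripts of the enzyme that soman blocks did not pass the test. Ache stood at 32.8, 39.2 and 32.4 FPKM in soman brains and at 34.9, 31.5 and 30.2 FPKM in saline, which overlap (log2 change 0.11 ± 0.13, limma adjusted p = 0.694). Bche, of butyrylcholinesterase, stood at 1.04, 1.30 and 1.03 FPKM, against 1.04, 0.807 and 0.926 FPKM in saline (adjusted p = 0.54). Chat, which makes acetylcholine, stood at 1.92, 2.46 and 1.42 FPKM, against 1.56, 1.87 and 2.16 FPKM in saline (adjusted p = 0.95). Among 16 tested genes of cholinergic signalling 1 fell, beside 5.36% of all tested genes. It was the nicotinic receptor gene Chrna7, with 4.34, 4.99 and 4.70 FPKM in soman brains and 6.15, 6.87 and 6.06 FPKM in saline (-0.38 ± 0.10, adjusted p = 0.0246). Its groups did not overlap, but the call was lost in 10 of 14 alternatives, among them each of the 6 in which 1 library was left out (highest adjusted p = 0.105). Of 20 other serine hydrolases, which organophosphates can also bind, none passed.

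Calls varied with transcript length. Among 14117 tested genes with a known length, split into 5 classes by length, 545 of 2823 in the longest class fell (19.3%) and 8 rose (0.283%). In the shortest class 15 of 2825 fell (0.531%) and 103 rose (3.65%). The median of the longest class stood at -0.12, -0.20 and -0.11 on the log2 scale in the soman libraries, against 0.0071, -0.024 and 0.019 in saline, all relative to the saline mean. The shortest class had medians of 0.14, 0.13 and 0.12 in the soman libraries, against 0.017, -0.0083 and -0.0063 in saline. All 3 soman libraries show this slope. When the trend was removed from each library, 91 genes rose and 174 fell, so that rises made up 34.3% of the calls, against 23.1% with it. RNA integrity is not given, and its part was not tested.

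**Figure D4:**
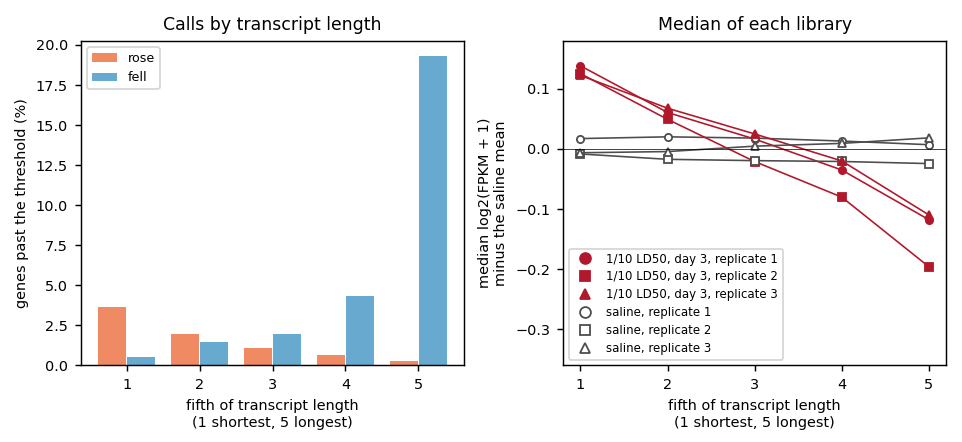
Left, the percentage of tested genes that rose or fell in soman brains relative to saline, by class of transcript length (5 classes, each with about the same number of genes). Right, the median of log2(FPKM + 1) minus the saline mean in each class, for each library of 1/10 LD50 at day 3 (filled) and saline (open); all 3 soman lines run downwards from the shortest to the longest class and cross 0.

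Lists with long transcripts gave many falls. One list holds chromatin regulators picked because their transcripts are long (median 9061 bases), so that its place on the slope is given by its choice. Of its 28 members 13 fell and none rose (median log2 change -0.27), 6 fell without soman replicate 2, and 1 fell with the length trend removed. That gene was Ep300, a histone acetyltransferase, at 8.28, 7.28 and 8.79 FPKM in soman brains, against 11.9, 11.5 and 11.1 FPKM in saline (limma adjusted p = 0.00127, and 0.0338 with the trend removed). The histone methyltransferase Kmt2c stood at 7.602, 5.86 and 6.63 FPKM, against 10.2, 9.75 and 9.64 FPKM in saline (adjusted p = 0.000187, and 0.0562 with the trend removed). Of 21 sodium, calcium and HCN channels 9 fell and none rose (median -0.27), 2 fell without soman replicate 2, and none did with the trend removed. Scn1a, the sodium channel of inhibitory neurons, stood at 19.0, 18.6 and 18.4 FPKM in soman brains and at 25.2, 25.9 and 27.4 FPKM in saline (adjusted p = 0.00533, and 0.12 with the trend removed).

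Among synaptic genes, 4 of 24 glutamate receptor genes fell, 1 of 15 GABA receptor genes, 2 of 32 potassium channels, 4 of 26 scaffold and adhesion genes and none of 21 synaptic vesicle genes, beside 5.36% of all tested genes. None rose. Grik3, a kainate receptor subunit, stood at 6.52, 6.42 and 7.85 FPKM in soman brains, against 9.40, 11.8 and 10.99 FPKM in saline (-0.56 ± 0.10, limma adjusted p = 0.00064). It passed both without soman replicate 2 and with the length trend removed (0.00936 and 0.0283). Gabrb2, a GABA receptor subunit, stood at 29.4, 25.9 and 32.5 FPKM, against 38.9, 35.7 and 40.2 FPKM in saline (adjusted p = 0.0157, and 0.123 without soman replicate 2). Bsn and Pclo, giant scaffolds of the presynaptic zone, fell by 0.41 and 0.32 on the log2 scale, and neither passed with the trend removed. Without soman replicate 2, 1 glutamate receptor gene fell, and no GABA receptor, potassium channel or scaffold gene did.

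The translation and respiration machinery, with short transcripts, gave a few rises. Of 40 cytosolic ribosomal protein genes 3 rose (Rpl27, Rpl38 and Rpl24) and none fell, and the median log2 change was 0.29. All 3 soman libraries lay above saline for 35 of the 40, beside 13% of all tested genes. They summed to between 6452 and 7185 FPKM in soman brains and between 5263 and 5635 FPKM in saline. Rpl27 stood at 92.0, 95.2 and 96.2 FPKM in soman brains, against 76.1, 77.4 and 73.7 FPKM in saline (limma adjusted p = 0.00157, and 0.0524 with the length trend removed). With that trend removed 1 of the 40 rose and the median was 0.19, and without soman replicate 2 also 1 rose. Of 40 nuclear genes of the respiratory chain 1 rose, Ndufa6, beside 1.61% of all tested genes. None did without soman replicate 2, and the median was 0.21. None of 13 messengers of the mitochondrial genome passed, and their sums overlapped, from 23200 to 38488 FPKM in soman brains and from 18135 to 32859 FPKM in saline. Ribosomal protein genes have many processed copies in the genome, so that their reads may have been split.

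**Figure D5:**
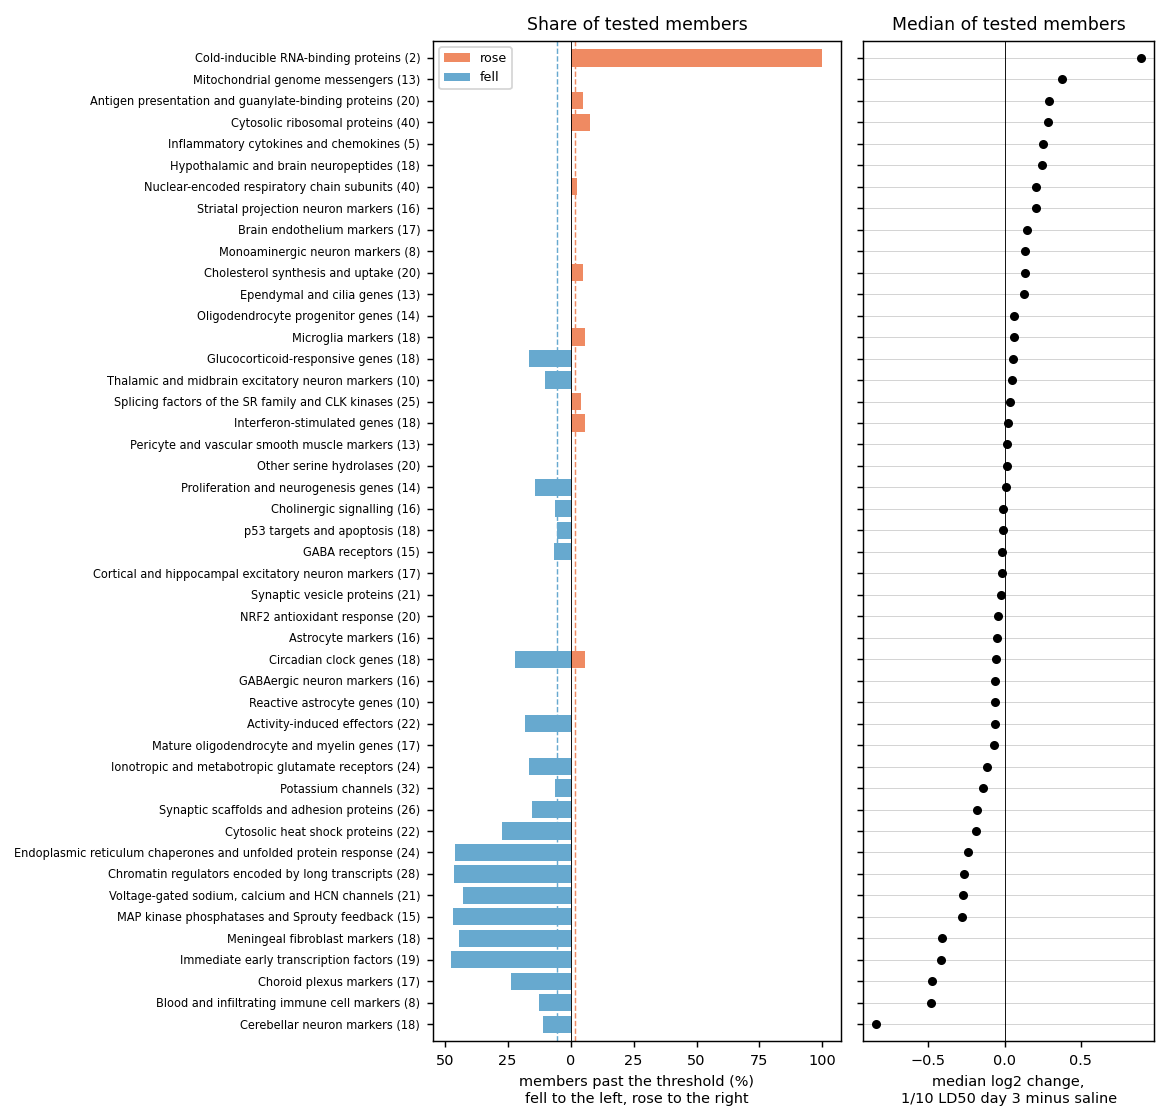
Left, the percentage of tested members of each gene list (number tested in brackets) that rose (to the right) or fell (to the left) in brains of 1/10 LD50 at day 3 relative to saline, with dashed lines at the 1.61% and 5.36% of all tested genes. Right, the median log2 change of the tested members, from 0.89 for the 2 cold-inducible genes to -0.84 for the cerebellar markers. Without soman replicate 2 the cerebellar median was -0.085.

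Single immune genes passed against saline, where 1.61% of all tested genes rose: 1 of 18 tested interferon-stimulated genes rose, Ifi27, with 39.6, 33.7 and 30.7 FPKM in soman brains and 20.5, 18.6 and 18.8 FPKM in saline (0.81 ± 0.19, limma adjusted p = 0.00992). B2m, the light chain of MHC class I, was the 1 of 20 antigen presentation genes that rose, with 75.3, 96.5 and 79.7 FPKM, against 29.5, 49.5 and 40.3 FPKM in saline (1.08 ± 0.29, adjusted p = 0.0212). In both genes all 3 soman libraries lay above saline, but B2m lost its call without soman replicate 2 (0.107). Over the 20 antigen presentation genes the median log2 change was 0.29. Of them 8 had all 3 soman libraries above saline, beside 13% of all tested genes. Of 5 tested cytokines and chemokines none passed.

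Set against 1/10 LD50 at day 1, 132 genes were higher at day 3 (0.898%) and 299 lower (2.03%), 2.93% in all. This comparison shares the soman day 3 libraries with the one against saline. Replicate 3 of 1/10 LD50 at day 1 is among the libraries that lie between others (73.2%, against a limit of 31.7%). Its independence was not tested, so that these p-values may rest on fewer than 3 independent day 1 samples. Between the 2 days 12 of the 18 interferon-stimulated genes were higher at day 3 and none lower, beside 0.898% of all tested genes higher. This and the other list counts against day 1 hold all libraries, and were not repeated without replicate 2 of day 3. Their median log2 change against saline was 0.02. Irf7, the factor that amplifies the interferon response, averaged 4.71 ± 0.832 FPKM at day 3 and 0.687 ± 0.210 FPKM at day 1 (SD, n = 3 each), a log2 difference of 1.76 ± 0.30 (limma adjusted p = 0.00136). Saline held Irf7 at 1.15, 4.97 and 3.20 FPKM, a range that includes 2 of the 3 day 3 libraries at 4.33 and 4.15 FPKM and misses the one at 5.67 FPKM. Ifit3, a sensor of foreign RNA, averaged 4.84 ± 1.83 FPKM at day 3 and 0.930 ± 0.286 FPKM at day 1 (SD, n = 3 each, limma adjusted p = 0.00242). Saline held Ifit3 at 1.96, 4.09 and 3.65 FPKM, and day 3 did not differ from it past the threshold (limma adjusted p = 0.356). Bst2, which tethers virus particles, averaged 5.98 ± 2.18 FPKM at day 3 and 2.03 ± 0.370 FPKM at day 1 (SD, n = 3 each, limma adjusted p = 0.00816).

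Some chaperones differed between the 2 days as well. Hspa5 averaged 106 ± 6.96 FPKM at day 3 and 75.9 ± 6.51 FPKM at day 1 (SD, n = 3 each, log2 difference 0.47 ± 0.13, limma adjusted p = 0.0358), both below the 175 ± 6.69 FPKM of saline. Calr, Pdia3, Pdia6 and Hsp90b1 were also higher at day 3 than at day 1, which makes 5 of the 24 on the list. Immediate early genes gave 1 difference in 19, Nr4a3, at 2.63 ± 0.267 FPKM at day 3 and 3.71 ± 0.279 FPKM at day 1 (SD, n = 3 each, limma adjusted p = 0.0324). Fos and Arc did not differ past the threshold (adjusted p = 0.607 and 0.871). Of the chromatin regulators 10 of 28 and of the meningeal markers 4 of 18 were lower at day 3 than at day 1. Over all genes, 15 were lower than at day 1 with the length trend removed and 11 in a fit of the 2 groups alone, against the 299 above. Without replicate 2 of day 3 this comparison gave 21 genes higher and 42 lower. Without replicate 1, 2 or 3 of day 1 it gave 65, 64 and 30 higher and 111, 172 and 78 lower, and without the libraries that lie between others 7 and 13.

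Against the other doses at day 3 no gene passed the limma test. Without replicate 2 of 1/5 LD50, 1 of the libraries low in cerebellar transcripts, 9 genes were higher and 2 lower at 1/10 than at 1/5 LD50, and without its replicate 3, 1 was lower. Of the 14701 genes, 356 differed from 1/5 LD50 and 778 from 1/2 LD50 at an unadjusted p under 0.05 (2.42% and 5.29%). Fos averaged 3.26 ± 1.16 FPKM at 1/10, 2.67 ± 2.10 FPKM at 1/5 and 4.27 ± 0.235 FPKM at 1/2 LD50 (SD, n = 3 each). Its log2 difference from 1/5 LD50 was 0.32 (95% interval -0.16 to 0.79) and from 1/2 LD50 -0.35 (-0.82 to 0.13). Hspa5 averaged 106 ± 6.96 FPKM at 1/10, 89.2 ± 1.89 FPKM at 1/5 and 92.5 ± 13.1 FPKM at 1/2 LD50 (SD, n = 3 each), with differences of 0.24 (-0.02 to 0.49) and 0.20 (-0.06 to 0.45). For Rbm3 the differences were 0.12 (-0.18 to 0.41) and 0.17 (-0.12 to 0.46). Each of these intervals includes 0 and also differences up to the sizes at its ends.

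Outside the lists and predicted loci, the largest rises in log2(FPKM + 1) past the threshold were those of Sec61g and of the chemokine gene Ccl27b. Sec61g is part of the channel through which proteins enter the endoplasmic reticulum. Sec61g and Ccl27b have near-identical copies among which reads may be split. Sec61g (limma adjusted p = 0.0286) lost its call under 10 of the settings tried, among them without soman replicate 2 (0.0873) and without saline replicate 2 (0.160). Tipin, a replication fork protein, stood at 8.29, 7.62 and 7.94 FPKM in soman brains, against 4.63, 4.89 and 4.62 FPKM in saline (0.65 ± 0.11, adjusted p = 0.00048). Ctla2a, a protease inhibitor with a near-identical neighbour, stood at 5.18, 4.18 and 4.30 FPKM, against 2.18, 1.74 and 1.69 FPKM in saline (adjusted p = 0.00101). These 2 separated the groups and passed under every alternative. The actin-binding gene Tmsb10, Ocel1, the ceramidase gene Acer2, the initiation factor Eif2d, Magohb of the exon junction complex and Tnnt1, a troponin, rose by 0.65 to 0.85 on the log2 scale. Of these 6 Eif2d kept its call without soman replicate 2, but lost it without saline replicate 1 or 3 (adjusted p = 0.0698 and 0.0638).

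Among the falls outside the lists, Banp, a nuclear DNA-binding protein, stood at 3.34, 4.60 and 4.10 FPKM in soman brains, against 9.05, 8.50 and 10.3 FPKM in saline (-1.04 ± 0.17, limma adjusted p = 0.000382). Lnpep, an aminopeptidase that cleaves oxytocin and vasopressin, stood at 8.35, 6.69 and 8.52 FPKM, against 14.6, 13.3 and 15.7 FPKM in saline (-0.82 ± 0.14, adjusted p = 0.000904). In neither did the soman libraries overlap saline, and both passed under every alternative. Mybpc1 and Grid2ip fell too but not without soman replicate 2 (adjusted p = 0.184 and 0.156). Iltifb, which has a near-identical copy in Il22, was at 0.571, 0 and 0.303 FPKM in soman brains and at 2.78, 1.48 and 2.23 FPKM in saline (adjusted p = 0.00677). Its call was also lost without soman replicate 2 (0.0595) and without the libraries that lie between others (0.0878).

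Eomes, a factor of newborn neurons, of olfactory bulb projection neurons and of unipolar brush cells of the cerebellum, stood at 0.627, 0.0972 and 0.329 FPKM in soman brains, against 1.75, 2.85 and 2.75 FPKM in saline (-1.35 ± 0.19, adjusted p = 0.000181). It was below saline in each soman library and passed under every alternative. Other genes of the olfactory bulb were chosen after their values were seen. Of these, Doc2g, Cdhr1 and Omp did not pass and overlapped saline. Tbx21 was too low to be tested, at 0, 0 and 0.0294 FPKM in soman brains, against 0.0365, 0.228 and 0.251 FPKM in saline, without overlap. Doc2g stood at 4.26, 3.15 and 2.55 FPKM in soman brains and at 3.33, 10.8 and 8.32 FPKM in saline (adjusted p = 0.237). Cdhr1 stood at 1.03, 2.47 and 0.796 FPKM, against 0.925, 5.05 and 3.57 FPKM in saline (adjusted p = 0.284). Both were high in saline replicates 2 and 3 and low in saline replicate 1, where Eomes was still above all soman libraries. The part of the olfactory bulb in the value of Eomes was not tested.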

How the data were processed

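Poly(dT)-primed brain RNA, extracted with Trizol and reverse transcribed with SmartScribe per the labels' protocols, was sequenced in 39 libraries. The authors deposited FPKM values per gene. HISAT2 and the build GRCh38 are named per the submitters' processing notes; GRCh38 is a human build, so no coordinates of the files were used, and the program that computed FPKM is not given in the sources used here. Read depth is unknown: the commonest ratio between the low values of libraries was reached by too few genes (0.431% and 0.304%) to recover it, and replicate number limits the precision.

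From these values, genes with at least 1 FPKM in at least 3 libraries were kept (14701 of 47561), log2(FPKM + 1) was computed, and a limma model (limma 3.58.1, R 4.3.3) with 13 groups was fitted to all 39 libraries. Fold changes on the log2(FPKM + 1) scale understate those of low genes. The Benjamini-Hochberg adjustment covered every tested gene, calls were made under 0.05, and intervals are 95%. The p-values measure the spread between libraries labelled as biological replicates. The fit was tested on simulated data. Python 3.11.15 with pandas 2.3.3 and numpy 2.4.6 made the tables and matplotlib 3.10.9 the figures.

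The text names the 15 genes with the largest rise and the 15 with the largest fall that have a mean of at least 2 FPKM, leaving out predicted loci, up to 4 past the threshold per list, 4 each way in the other comparisons, and always Ache, Bche, Chat, Fos, Arc, Hspa5, Rbm3 and Cirbp; other genes were named after their values were seen. The 46 gene lists and the members were chosen with earlier results of these data known. Alternatives were another pseudocount (0.1), no filter, median-ratio scaling, the 2 groups alone, a replicate block, a lowess trend on transcript length removed per library, leaving out each library and leaving out the 7 libraries between others; leaving out replicate 3 of both groups was chosen after seeing the data. Transcript lengths came from GENCODE vM21 (96.03% of tested genes) and promoter windows from RefSeq, GRCm38.p6. No 2 libraries held identical values. Same-numbered libraries of 1/10 and 1/5 LD50 at day 3 deviated together (correlations 0.2241, 0.3551 and 0.1718). Replicate 1 of 1/10 LD50 and replicate 3 of 1/5 LD50 also did (0.1268), and replicate 2 of both groups was low in cerebellar transcripts. The labels do not pair these groups, and whether they are paired was not tested. Results of 2 genes are not reported here.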

Additional observations from a re-analysis of the deposited data

Results flagged for a closer look

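For 38 of the 95 named genes the difference between day 3 and day 1 of 1/10 LD50 itself passed the limma test, with adjusted p from 0.000498 to 0.0495 and 3 libraries a group. Over all tested genes 2.93% passed. Some of the 95 were named because they passed this comparison, and most because they passed against saline, which shares the day 3 libraries. The share among named genes is therefore no separate result. The values are log2 differences, day 3 minus day 1. The 14 genes higher at day 3 were Irf7 (1.76), Ly6a (1.62), Ifi27l2a (1.60), Ifit3 (1.56), Ifi27 (1.39), Sec61g (1.34), B2m (1.32), Ccl27b (1.01), Ctss (0.59), Rpl38 (0.54), Hspa5 (0.47), Ndufa6 (0.38), Rpl27 (0.31) and Rpl24 (0.29). The 24 genes lower at day 3 were Iltifb (-1.33), Itpr1 (-0.88), Lnpep (-0.85), Grid2ip (-0.84), Col3a1 (-0.57), Spred2 (-0.55), Rora (-0.53), Scn2a (-0.53), Grik3 (-0.47), Grm3 (-0.47), Bsn (-0.47), Clock (-0.44), Scn1a (-0.43), Kcna2 (-0.38), Nr4a3 (-0.37), Dnajb5 (-0.37), Ep300 (-0.36), Bmp6 (-0.35), Gabrb2 (-0.34), Spred1 (-0.33), Kmt2c (-0.33), Pclo (-0.31), Kmt2a (-0.30) and Chd2 (-0.22). The first set holds interferon-stimulated and ribosomal protein genes, and the second holds ion channels, chromatin regulators and scaffolds with long transcripts. Irf7, Ly6a, Ifi27l2a and Ifit3 did not pass against saline (limma adjusted p = 0.241, 0.511, 0.141 and 0.356). Without replicate 2 of day 3, which almost lacks cerebellar transcripts, the comparison of all genes gave 21 higher and 42 lower, against 132 and 299 with it.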

How the results depend on the processing

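Against saline (237 genes higher, 788 lower), the 2 groups fitted alone gave 73 higher and 141 lower, removal of the length trend 91 and 174, and the fit without the 7 libraries between others 22 and 122. Without replicate 3 of both groups, chosen after seeing the data, there were 57 and 352. Leaving out 1 library at a time gave 89 to 181 higher and 253 to 808 lower. Pseudocount 0.1, no filter and median-ratio scaling stayed within 1.5 times of the counts. Against 1/10 LD50 at day 1 (132 and 299), the 2 groups alone gave 29 and 11, length 20 and 15, the fit without libraries between others 7 and 13, and leaving out 1 library 21 to 111 higher and 42 to 355 lower. Against 1/5 LD50 at day 3 (0 and 0), no filter gave 1 and 3, and leaving out 1 library 0 to 9 higher and 0 to 2 lower, with 9 and 2 without 1/5 LD50 replicate 2. Against 1/2 LD50 (0 and 0) no filter gave 1 and 2. With fewer libraries or groups fewer degrees of freedom remain; otherwise the cause was not tested.

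Of 95 named genes 88 passed, and 23 of these kept their call in each alternative run. Pclo reversed, from a log2 change of -0.32 to 0.0031 with the length trend removed (adjusted p = 0.99). Calls were lost by 56 named genes without the libraries between others, by 45 with the 2 groups alone, by 39 without soman replicate 2 and by 39 with the length trend removed, Pclo among them.

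Same-numbered soman and saline libraries did not deviate together (correlations 0.0394, -0.0224 and -0.0575), so the numbers were not taken to pair them. With a replicate block 229 genes were higher and 752 lower than in saline, and 117 and 255 than at day 1. The block gave 0 calls against 1/5 and 1/2 LD50 at day 3. Low FPKM values rest on unknown read numbers.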

Other observations

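In 17 of the 46 gene lists no member passed against saline in either direction. They include the antioxidant genes controlled by NRF2 (20 tested), synaptic vesicle proteins (21), GABAergic neuron markers (16), monoaminergic neuron markers (8) and ependymal genes (13). Striatal projection neuron markers had a median log2 change of 0.20. Of the 16, 7 had all 3 soman libraries above saline without passing the limma test, beside 13% of all tested genes with all 3 above. Single members passed elsewhere. Bcl2, which holds back apoptosis, stood at 1.85, 2.12 and 1.78 FPKM in soman brains, against 2.91, 2.72 and 2.93 FPKM in saline (limma adjusted p = 0.000337, and 0.0711 with the length trend removed). Insig1, a brake on cholesterol synthesis, stood at 28.6, 22.1 and 21.0 FPKM in soman brains, against 17.7, 16.3 and 16.6 FPKM in saline (adjusted p = 0.0429), a call lost under 10 of the settings tried, among them without soman replicate 1 (0.182) or 2 (0.0792). Srsf5, a splicing factor, stood at 133, 109 and 127 FPKM, against 95.6, 103 and 101 FPKM in saline (adjusted p = 0.00667, and 0.0872 with the length trend removed).

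The 18 cerebellar markers summed to 156 FPKM in soman replicate 2 of 1/10 LD50 at day 3. The other 2 libraries of the series with such sums were replicate 2 of 1/5 LD50 at day 3, at 177 FPKM, and replicate 1 of 1/2 LD50 at day 7, at 180 FPKM.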
